A study of Mus musculus with 12 samples.

Results

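The genes described here are 53 genes of the G2 phase and mitosis, a list that is widely used to score this part of the cell cycle in single cells. All 53 were found by symbol among the 32285 genes of the count matrices. They were measured in small intestinal organoids of wild-type BALB/c mice by single-cell RNA sequencing. Organoids are crypt-derived epithelial cultures that hold stem, transit and differentiated cells but no immune cells of their own. In 6 groups, organoids were cultured for 4 days alone (control), with Treg cells, with Treg cells plus anti-IFNγ, anti-IL-10R (which binds the receptor of IL-10) or both antibodies, or with rIFNγ plus rIL-10 without T cells. Treg cells were CD25high FoxP3-EGFP+ cells of C57BL/6 mice and therefore allogeneic, and 100000 of them per well were kept apart from the organoid drop by a tilted plate. Wells with T cells also received IL-2 at 30 U/mL and 2 µL of CD3/CD28 beads. Antibodies were given at 10 µg/mL, rIFNγ at 0.25 ng/mL and rIL-10 at 10 ng/mL. Live EpCAM+ cells carried one hashtag antibody per group, so each library held cells of all 6 groups, and the groups were read with the hashtag key that was deposited with the data.

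A total of 5 libraries from 3 biological replicates was used. Replicates 1 and 2 consisted of 2 libraries each and replicate 3 of 1. Of 35985 deposited cells, 11911 passed the hashtag call and the limits on UMIs (unique molecular identifiers, single captured transcripts), genes and mitochondrial share. The UMIs of all cells of a group and replicate were summed, which gave 18 samples with 333 to 999 cells and 15087201 to 43938384 UMIs each. The median number of UMIs per cell ranged from 42289.5 to 48423 between samples. Library 3 stood apart with 31.1% hashtag doublets, against 8.79% to 15.02% in the others. Its weight in the counts of called members is given with those counts. Pairs of libraries shared at most 5 cell barcodes. Epithelial markers (Epcam, Cdh1, Krt8, Krt18, Krt19, Cldn7 and Vil1) summed to 5923 to 6285 CPM in all 18 samples, where CPM are UMI counts scaled to a common total. TMM factors were applied to the CPM of single genes in the samples, but not to summed markers or to thinned cells. The 13 T cell markers summed to 1.56 to 3.15 CPM in 16 samples, and to 8.74 and 19.9 CPM in replicates 2 and 3 of the Treg group with anti-IL-10R.

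Entry into mitosis is driven by the kinase CDK1 bound to cyclin B, which phosphorylates the proteins that condense chromosomes, take down the nuclear envelope and build the spindle. The spindle checkpoint holds the anaphase-promoting complex in check until every kinetochore is attached, and the active complex then marks cyclin B and securin for degradation. Most of these genes are transcribed late in the cell cycle, when the MuvB complex with B-Myb and FOXM1 binds a short promoter element called the cell cycle genes homology region (CHR), often next to CCAAT boxes bound by NF-Y. In the intestine, this program runs in crypt base stem cells and above all in transit-amplifying cells, and it is shut down as cells become enterocytes or secretory cells.

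The promoter letters were read to show what these genes share beyond their place in the list. RefSeq promoters (GRCm38.p6, 250 bases before to 50 after the start) were given for 47 of the 53 members. The letters TTTGAA, read on both strands (TTCAAA on the other), stood in 32 of these 47 genes (68.1%) and in 20.2% of the 27025 genes of the table. TTTAAA stood in 25.5% of the members and 14.9% of all genes, and one or the other of these CHR letters in 78.7% and 30.6%. CCAAT (which reads ATTGG on the other strand) stood in 76.6% of the members and 41.1% of all genes, and at least 2 copies in 61.7% and 13.3%. Both kinds of letters occurred together in 63.8% of the members and 12.2% of all genes. The 250 bases before the start are shown for members on which the results turn. These are the cyclin and kinase of mitotic entry, and the activator and the conjugating enzyme of the anaphase-promoting complex. The others are Top2a and Nusap1, which had the least and the most negative log2 fold change with rIFNγ plus rIL-10. Capitals mark the CHR letters and CCAAT on either strand, and each sequence runs 5′ to 3′ toward its gene. They lie at chr13:100786487-100786736 (minus strand, Ccnb1), chr10:69352913-69353162 (minus strand, Cdk1), chr4:118437344-118437593 (minus strand, Cdc20), chr2:164769679-164769928 (plus strand, Ube2c), chr11:99024190-99024439 (minus strand, Top2a) and chr2:119618048-119618297 (plus strand, Nusap1).
Ccnb1: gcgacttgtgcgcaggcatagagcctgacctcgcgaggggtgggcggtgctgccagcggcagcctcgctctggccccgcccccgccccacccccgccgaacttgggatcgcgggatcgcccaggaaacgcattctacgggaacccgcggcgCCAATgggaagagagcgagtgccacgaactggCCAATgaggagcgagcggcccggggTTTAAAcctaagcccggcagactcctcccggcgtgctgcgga
Cdk1: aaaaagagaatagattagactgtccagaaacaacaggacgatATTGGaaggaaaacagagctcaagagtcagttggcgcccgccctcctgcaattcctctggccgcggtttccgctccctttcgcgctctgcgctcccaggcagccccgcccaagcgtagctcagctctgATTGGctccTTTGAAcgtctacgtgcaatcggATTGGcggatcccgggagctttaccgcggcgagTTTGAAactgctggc
Cdc20: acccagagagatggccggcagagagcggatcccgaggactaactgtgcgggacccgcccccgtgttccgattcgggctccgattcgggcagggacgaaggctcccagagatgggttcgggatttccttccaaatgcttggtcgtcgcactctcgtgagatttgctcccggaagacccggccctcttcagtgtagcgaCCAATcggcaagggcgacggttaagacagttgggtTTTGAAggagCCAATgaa
Ube2c: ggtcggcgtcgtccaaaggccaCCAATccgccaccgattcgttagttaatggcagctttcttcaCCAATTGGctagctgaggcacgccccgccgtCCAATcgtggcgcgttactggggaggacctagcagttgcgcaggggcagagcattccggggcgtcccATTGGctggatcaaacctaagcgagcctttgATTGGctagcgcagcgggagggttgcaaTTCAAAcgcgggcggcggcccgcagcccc
Top2a: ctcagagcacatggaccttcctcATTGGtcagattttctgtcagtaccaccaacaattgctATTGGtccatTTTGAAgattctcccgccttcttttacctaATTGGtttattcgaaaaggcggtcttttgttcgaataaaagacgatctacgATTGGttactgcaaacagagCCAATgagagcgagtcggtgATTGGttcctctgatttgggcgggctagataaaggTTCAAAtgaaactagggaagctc
Nusap1: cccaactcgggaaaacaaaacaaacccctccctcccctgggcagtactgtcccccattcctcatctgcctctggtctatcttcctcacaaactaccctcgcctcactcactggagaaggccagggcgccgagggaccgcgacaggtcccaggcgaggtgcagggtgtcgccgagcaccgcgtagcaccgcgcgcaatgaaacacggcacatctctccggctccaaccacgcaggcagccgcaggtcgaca
Cdk1, Cdc20, Ccnb1 and Ube2c carried CHR letters together with CCAAT boxes, and so did Top2a. Nusap1 carried neither in this window. It was not alone among members whose sequences are not shown. In the same bases, Nuf2 carried neither, Kif2c only CHR letters, Aurka and Hjurp only CCAAT, and Ckap2 both. A match of letters is not a bound site, and the data hold no measurement of binding.

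In the 1774 control cells, each thinned to 10000 UMIs, members went together from cell to cell. For each member, the Spearman correlation between its UMIs and the summed UMIs of the other members ranged from 0.88 for Hmgb2 to 0.18 for Psrc1, over 1774 cells. Depth was equal after thinning, but cells of all classes and replicates were pooled, and the values are given without a test. Abundance differed between these members, as Hmgb2 had 31040 UMIs in these cells and Psrc1 was the least abundant member. Cells were also assigned to classes built from control cells without the members, the other cell cycle lists and interferon genes. Of the control cells, 88.1% were assigned to their own class again, a share that covers only the cells from which the classes were built. Stem-like clusters had Olfm4, Lgr5 or Clca3b among their leading genes, enterocyte-like ones Fabp1, Apoa1, Sis or Rbp2, and the secretory-like one Chgb, Defa24, Fcgbp and Zg16. In the clusters of the largest class, no marker list was prominent, and the class stayed unnamed. Several of its clusters, and a pair of the stem-like clusters, were still led by genes linked to the cell cycle (Pif1, Kpna2, Brca1, Ccne1).

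Taken over whole classes, the members were high in stem-like and unnamed control cells and low in enterocyte-like ones. The stem-like class was not uniform. Its cluster 1, led by Olfm4, Ifitm3 and Lgr5, had a median of 25.6 member UMIs per 10000. Cluster 3 (led by Slfn9) had 56.2 and cluster 4 (led by Clca3b) 122.96, while the secretory-like cluster had 15.6. Ube2c, the ubiquitin-conjugating enzyme of the anaphase-promoting complex, had a mean of 471 ± 29.7 CPM in thinned unnamed, 261 ± 60.3 in stem-like, 224 ± 70.9 in secretory-like and 61.4 ± 24.1 in enterocyte-like control cells (SD, n = 3). Top2a, the topoisomerase that untangles sister chromatids, had 398 ± 53.3, 370 ± 86.6, 110 ± 24.7 and 20.4 ± 4.94 CPM in the same order. The replicate spreads of unnamed and stem-like cells thus overlapped for Top2a, whereas enterocyte-like cells lay far below both. Hjurp, the chaperone that loads CENP-A at centromeres, overlapped between classes, with 83.8 ± 6.39 CPM in stem-like and 58.1 ± 29.6 in enterocyte-like cells.

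Co-culture with Treg cells was compared with control to see whether the mitotic program of the epithelium changed. No member passed the test. The quasi-likelihood test of edgeR called 0 of 53 members in all epithelial cells, where it called 0.153% of the 15002 genes tested. None had an unadjusted p under 0.05, and DESeq2 called 0 as well. The median log2 fold change of the members was -0.07, against -0.00 for all genes. A total of 50 of 53 members had a lower fitted level than in control, with single values between -0.22 and 0.06. Signs here and in the comparisons below were counted for members only. Members went together from cell to cell, so such counts are not separate results. Cdc25c, the phosphatase that activates CDK1, had the smallest p. Its level was 16.7, 16.4 and 16.7 CPM in control replicates 1, 2 and 3 and 16.0, 12.7 and 13.98 CPM with Treg cells. Every Treg sample thus lay below every control sample, but the log2 fold change of -0.22 ± 0.12 (SE) did not pass (adjusted p = 0.779, edgeR). Anp32e, a histone chaperone, had a log2 fold change of -0.11 ± 0.07 (adjusted p = 0.833, edgeR). Rangap1, the activator of the Ran GTPase cycle that is found at kinetochores in mitosis, had -0.08 ± 0.05 (adjusted p = 0.835, edgeR).

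No member passed the test in the groups with antibodies either. With anti-IFNγ, 0 of 53 members were called against control, where 0% of all genes were called. Their median log2 fold change was 0.02, and 41 members lay above control. Ckap5, a microtubule polymerase of the spindle, had the smallest p there, with a log2 fold change of 0.10 ± 0.07 (adjusted p = 1, edgeR), followed by the central spindle kinesin Kif23 at 0.11 ± 0.10 and the spindle protein Ckap2 at 0.11 ± 0.10. With anti-IL-10R, 0 of 53 were called, against 0.453% of all genes, with a median of -0.05. Top2a had the smallest p, at 429, 433 and 341 CPM against 372, 384 and 302 CPM in control (log2 fold change 0.19 ± 0.09, adjusted p = 0.536, edgeR). It was higher in 3 of 3 replicates, and the samples of both groups overlapped. The kinesin Kif2c, which takes microtubules apart at kinetochores, had -0.18 ± 0.11, and Cdc20 had -0.12 ± 0.09. With both antibodies, 0 of 53 were called, against 0% of all genes, with a median of 0.02. There, Ckap5 had 0.14 ± 0.07, Ckap2 0.13 ± 0.10 and Tacc3, a partner of Ckap5 on spindle microtubules, 0.08 ± 0.07 (adjusted p = 1 for each, edgeR). No member had an unadjusted p under 0.05 in these 3 comparisons, and DESeq2 called 0 in each.

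Each antibody group was also compared with Treg cells alone, which shares the Treg samples with the comparison against control. With anti-IFNγ, 0 of 53 members were called (0.193% of all genes), 51 had a higher fitted level, and the median log2 fold change was 0.11. With anti-IL-10R, 0 were called (0% of all genes), 38 were higher, and the median was 0.02. With both antibodies, 0 were called (0.207% of all genes), 50 were higher, and the median was 0.09. Ckap2 was the only member with an unadjusted p under 0.05, in the comparisons with anti-IFNγ (log2 fold change 0.22 ± 0.10, adjusted p = 0.608, edgeR) and with both antibodies (0.24 ± 0.10, adjusted p = 0.468, edgeR). DESeq2 called no member in any of the 3 comparisons.

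**Figure D1:**
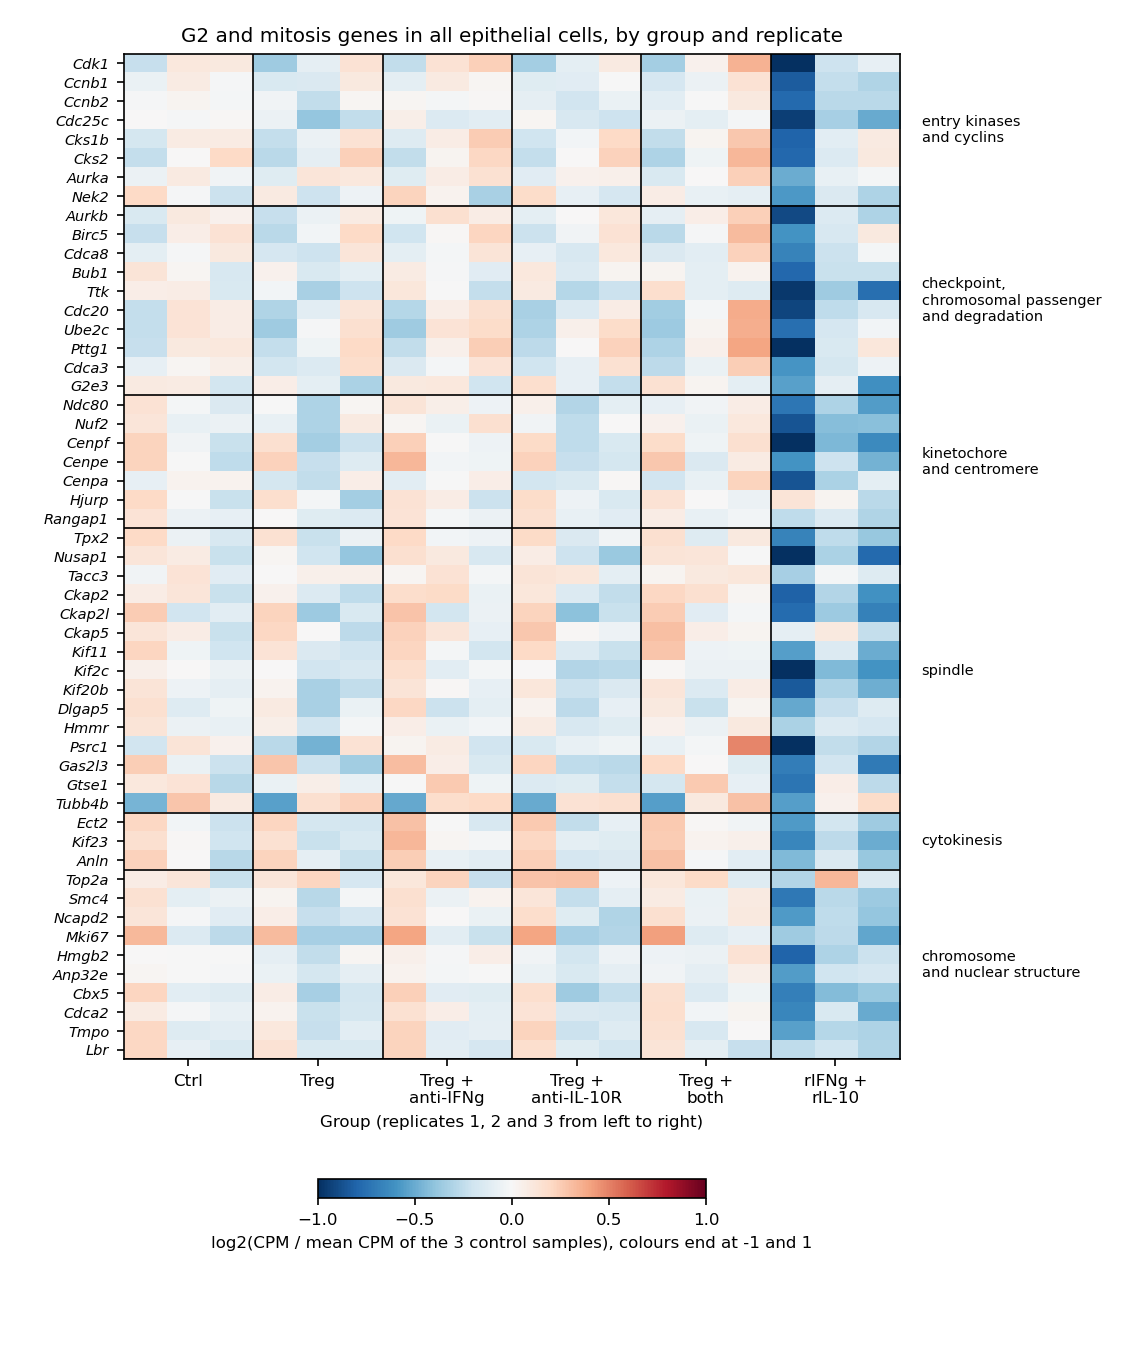
Level of each of the 53 members (rows, ordered by role) in each of the 18 samples (columns, replicates 1, 2 and 3 in each group), as the log2 ratio of its CPM to the mean CPM of the 3 control samples. Blue rows run through the 3 samples with rIFNγ plus rIL-10, deepest in replicate 1, whereas the Treg and antibody groups resemble control and repeat its differences between replicates.

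Stimulation with rIFNγ plus rIL-10 was compared with control to learn what both cytokines did in the absence of T cells. Here most members fell. A total of 44 of 53 members was lower and 0 higher, while 35.9% of all 15002 genes were called, and 17.5% were called lower. The median log2 fold change of the members was -0.39, against -0.01 for all genes, and all 53 fitted values were below 0, from -0.70 for Nusap1 to -0.01 for Top2a. The members that passed were 12.8% to 38.6% lower than control. In 45 members the cytokine sample was lower in 3 of 3 replicates, and in 29 every cytokine sample lay below every control sample. For 13 members, the 3 cytokine samples lay below all 15 other samples. These counts over samples were made for members only, so no share over all genes stands beside them. The fall was deepest in replicate 1 in 52 of 53 members, with a median log2 ratio to the control sample of -0.77, against -0.20 in replicate 2 and -0.22 in replicate 3.

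Without replicate as a block, 10 members were called, and Cdk1, Ccnb1, Aurka, Cdc20, Ube2c and Mki67 were not among them. Without replicate 1, 23 were called, of which 22 were lower and 1 was higher, without replicate 3, 25, and without library 3, 47. DESeq2 called 46. Markers of other cells moved with the same contrast. The 16 stem cell markers summed to 2750, 2414 and 2254 CPM in control and to 934, 1471 and 1241 CPM with cytokines, and 14 of the 15 tested were lower. Goblet markers were higher in 11 of 13 and Paneth markers in 7 of 12. In sums over cells, fewer cells in mitosis and less mitotic RNA per cell cannot be told apart, nor can a change in the mix of cell classes.

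Of the kinases and cyclins of mitotic entry, 7 of 8 fell. Cdk1 had 128, 162 and 161 CPM in control, 117, 141 and 166 CPM with Treg cells and 72.6, 130 and 142 CPM with rIFNγ plus rIL-10, while the 9 samples with antibodies ranged from 119 over a median of 155 to 191 CPM. Its cytokine samples were below the control sample in every replicate, although the groups overlapped, and the log2 fold change was -0.43 ± 0.10 (SE, adjusted p = 0.00408, edgeR) and -0.24 without replicate 1. Ccnb1, which encodes its partner cyclin B1, had 84.7, 94.0 and 88.0 CPM in control, 80.0, 80.6 and 95.0 CPM with Treg cells and 49.9, 75.5 and 72.2 CPM with cytokines, against 79.1, 85.4 and 98.5 CPM as the lowest, median and highest antibody sample. Here the cytokine samples lay below all other samples (log2 fold change -0.45 ± 0.09, adjusted p = 0.00245, edgeR), and the log2 fold change was -0.29 without replicate 1. Ccnb2, which encodes cyclin B2, fell by 0.43 on the log2 scale, and Cdc25c by 0.56. The CDK-binding subunits Cks1b and Cks2 fell by less, with log2 fold changes of -0.26 ± 0.09 and -0.25 ± 0.07. Replicate 3 did not share the change of Cks1b, with log2 ratios to control of -0.62, -0.18 and 0.008 in replicates 1, 2 and 3.

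Aurka, the centrosomal kinase that helps to activate CDK1 and to set up the spindle poles, fell least of this group. It had 50.1, 55.3 and 50.7 CPM in control, 47.9, 56.7 and 56.1 CPM with Treg cells and 37.0, 49.4 and 51.4 CPM with cytokines, and 46.8 to 61.6 CPM (median 53.5) with antibodies. Only replicates 1 and 2 were lower than their control, and the log2 fold change was -0.20 ± 0.07 (adjusted p = 0.0391, edgeR). It was -0.073 without replicate 1 and -0.21 without replicate 2, and the call was lost in both cases, as also without the filter on low counts, without the block, without the upper limit on UMIs and with thinned cells. Nek2, a kinase of centrosome separation, was lower in 3 of 3 replicates but did not pass (-0.33 ± 0.13, adjusted p = 0.056, edgeR).

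All 10 members of the checkpoint, the chromosomal passenger complex and protein degradation fell. Cdc20, the activator of the anaphase-promoting complex, had 71.0, 92.0 and 88.5 CPM in control, 68.1, 77.9 and 91.0 CPM with Treg cells and 44.4, 70.3 and 74.9 CPM with cytokines, and 65.8 to 109 CPM (median 82.5) with antibodies. It was lower in 3 of 3 replicates, with 1 control sample within the range of the cytokine samples (log2 fold change -0.43 ± 0.09, adjusted p = 0.00201, edgeR). Ube2c had 319, 414 and 396 CPM in control, 294, 373 and 421 CPM with Treg cells and 224, 336 and 371 CPM with cytokines, and 293 to 485 CPM (median 389) with antibodies. It, too, was lower in every replicate, by less in replicate 3 (log2 fold change -0.31 ± 0.07, adjusted p = 0.00351, edgeR). Without replicate 1 it was -0.20 and no longer passed (adjusted p = 0.0835, edgeR).

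Ttk, the checkpoint kinase that senses free kinetochores, showed the largest fall of these 10. It went from 26.7, 26.9 and 23.0 CPM to 13.1, 19.98 and 15.1 CPM, with a log2 fold change of -0.66 ± 0.14 (adjusted p = 0.00247, edgeR). Bub1, another checkpoint kinase, fell by 0.40 on the log2 scale, with a log2 ratio to control of only -0.06 in replicate 3. Of the passenger complex that corrects wrong attachments, the kinase Aurkb fell by 0.43, survivin (Birc5) by 0.21 and borealin (Cdca8) by 0.29. In replicate 3, the log2 ratio of Birc5 to control was only -0.04. The ubiquitin ligase genes Cdca3 and G2e3 fell by 0.27 and 0.39. The securin gene Pttg1 fell by 0.33, and replicate 3 did not share this change, at 111 CPM in both groups.

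Of the kinetochore and centromere genes, 6 of 7 fell. Nuf2, a part of the NDC80 complex that grips microtubules, had 25.6, 22.3 and 22.6 CPM in control, 22.3, 18.9 and 24.96 CPM with Treg cells and 12.9, 17.5 and 17.6 CPM with cytokines, and 19.8 to 26.3 CPM (median 23.6) with antibodies. The cytokine samples lay below all others (log2 fold change -0.56 ± 0.11, adjusted p = 0.00164, edgeR, and -0.34 without replicate 1), and its partner Ndc80 fell by 0.51. Cenpf, a large protein of the outer kinetochore, had 180, 150 and 133 CPM in control, 172, 122 and 133 CPM with Treg cells and 74.9, 113 and 99.3 CPM with cytokines, and 130 to 182 CPM (median 154) with antibodies. Again the cytokine samples lay below all others (-0.67 ± 0.15, adjusted p = 0.00397, edgeR, and -0.41 without replicate 1). The kinesin Cenpe and the centromeric histone Cenpa fell by 0.40 and 0.41, and Rangap1 by 0.22. Hjurp had 88.9, 77.1 and 66.2 CPM in control and 84.5, 79.0 and 64.1 CPM with cytokines and did not pass (-0.03 ± 0.05, adjusted p = 0.73, edgeR).

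Of the spindle genes, 9 of 15 fell. Kif2c had the smallest adjusted p of all members. It had 29.2, 28.2 and 27.1 CPM in control, 28.1, 24.7 and 25.2 CPM with Treg cells and 14.1, 20.7 and 18.5 CPM with cytokines, and 23.0 to 31.6 CPM (median 27.0) with antibodies. The cytokine samples lay below the 15 others, with a log2 fold change of -0.66 ± 0.12 (adjusted p = 0.000956, edgeR). Nusap1, which bundles spindle microtubules near chromosomes, had 161, 156 and 127 CPM in control, 150, 129 and 113 CPM with Treg cells and 67.2, 119 and 86.3 CPM with cytokines, and 114 to 165 CPM (median 156) with antibodies. Its cytokine samples were below every control sample and overlapped the Treg samples (-0.70 ± 0.15, adjusted p = 0.00238, edgeR, and -0.46 without replicate 1). Ckap2 had 40.02, 41.3 and 32.6 CPM in control, 39.2, 34.6 and 31.8 CPM with Treg cells and 21.7, 31.0 and 24.9 CPM with cytokines, and 32.1 to 43.8 CPM (median 41.1) with antibodies. Its 3 cytokine samples lay below the 15 others (-0.55 ± 0.10, adjusted p = 0.00133, edgeR).

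Among the other spindle genes, 6 fell and 6 did not pass. Ckap2l fell by 0.55 on the log2 scale, the kinesin Kif20b by 0.52, Gas2l3 by 0.48, Tpx2, the activator of Aurora A on the spindle, by 0.41, the bipolar kinesin Kif11 by 0.36 and Hmmr by 0.20. Ckap5 (-0.06 ± 0.07) and the tubulin gene Tubb4b (-0.08 ± 0.05) did not pass, and neither did Tacc3 (-0.16 ± 0.07, adjusted p = 0.0839, edgeR). Dlgap5, Gtse1 and Psrc1 had log2 fold changes of -0.28 ± 0.11, -0.30 ± 0.13 and -0.66 ± 0.25 and missed the threshold with adjusted p of 0.0558, 0.0916 and 0.0534 (edgeR). Psrc1 was the least abundant member, with a mean of 5.87 CPM in control. Counts of Tubb4b and of Hmgb2, Cks1b and Cbx5 are uncertain where near-identical family members or processed copies could take part of their reads.

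The 3 cytokinesis genes fell. Kif23, which bundles the central spindle, had a log2 fold change of -0.45 ± 0.11, Ect2, the exchange factor that starts the contractile ring, of -0.34 ± 0.12, and the ring scaffold anillin (Anln) of -0.30 ± 0.10. Of the genes of chromosome and nuclear structure, 9 of 10 fell. Mki67, which encodes the Ki-67 coat of mitotic chromosomes, had 228, 165 and 151 CPM in control, 226, 145 and 144 CPM with Treg cells and 142, 151 and 127 CPM with cytokines, and 145 to 241 CPM (median 169) with antibodies. Every cytokine sample lay below every control sample, replicate 2 only just (-0.34 ± 0.11, adjusted p = 0.0219, edgeR). It no longer passed without replicate 1 (-0.18, adjusted p = 0.085, edgeR) or without replicate 3 (-0.38, adjusted p = 0.116, edgeR). The condensin subunits Smc4 and Ncapd2 fell by 0.43 and 0.39, the chromatin protein Hmgb2 by 0.43, Cbx5 (HP1α) by 0.47 and the lamina proteins Tmpo and Lbr by 0.35 and 0.24. Cdca2, which targets a phosphatase to anaphase chromosomes, fell by 0.41 and Anp32e by 0.30.

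Among the genes of chromosome and nuclear structure, Top2a was the exception. It had 372, 384 and 302 CPM in control, 384, 408 and 314 CPM with Treg cells and 288, 444 and 319 CPM with cytokines, and 300 to 433 CPM (median 381) with antibodies. Replicate 1 was lower than its control and replicates 2 and 3 were higher, and the difference was -0.01 ± 0.09 on the log2 scale (adjusted p = 0.926, edgeR), with a sign that changed with the scaling. Without replicate 1, Top2a was higher (0.15, adjusted p = 0.0308, edgeR).

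**Figure D2:**
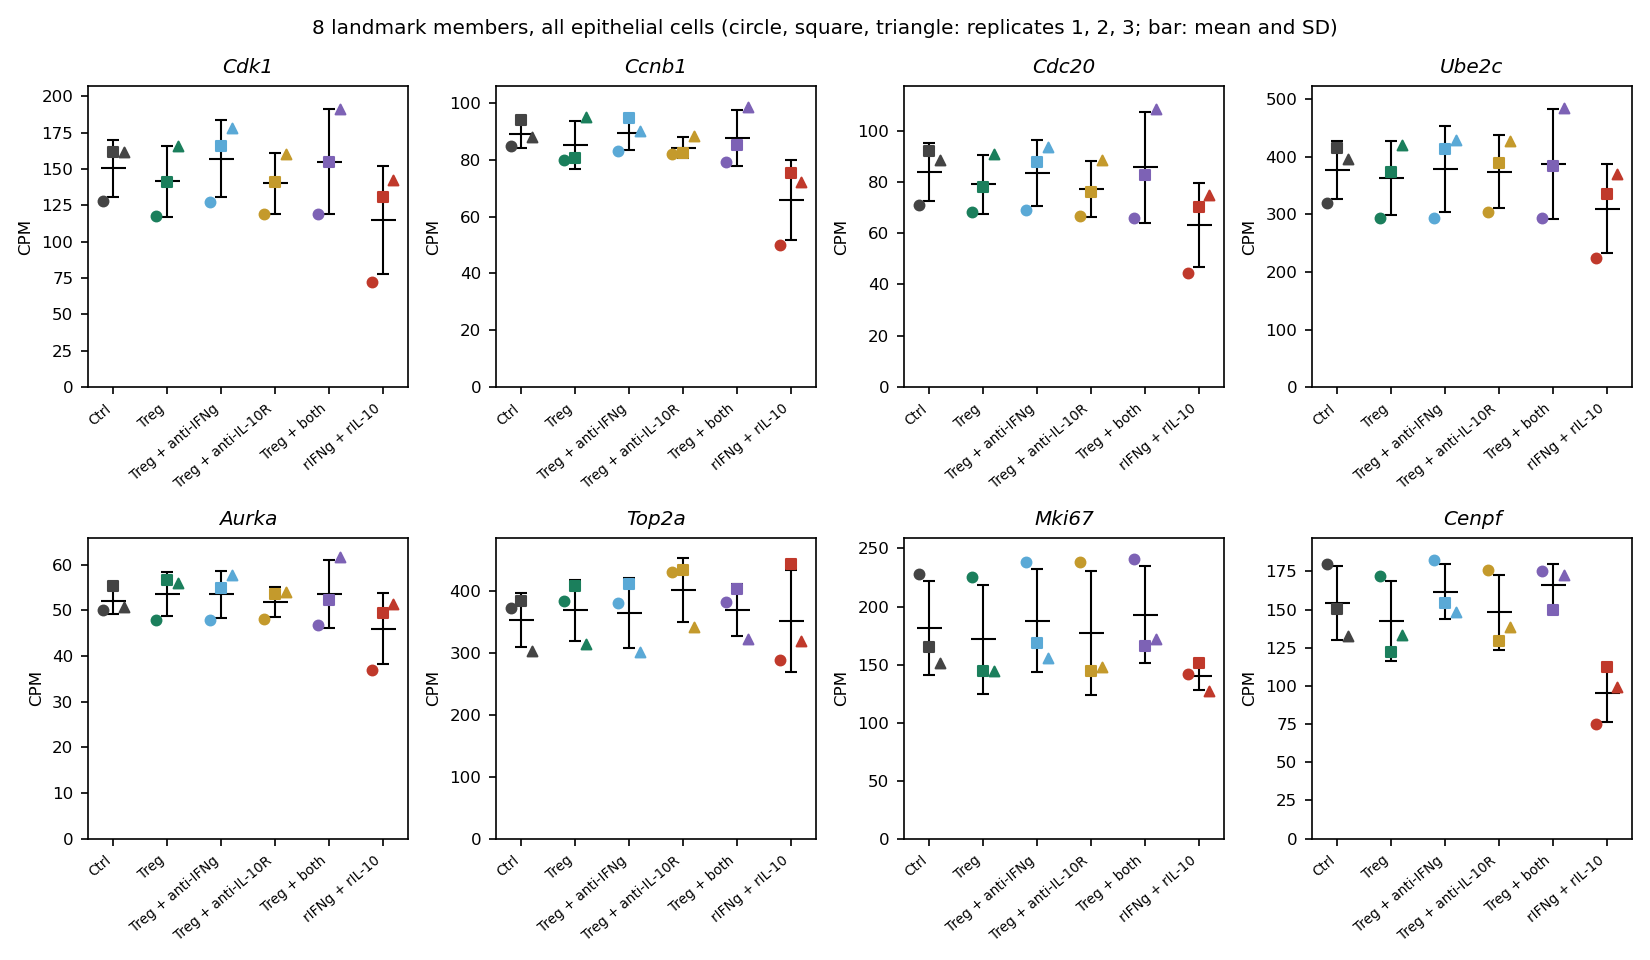
CPM of 8 landmark members in the sums over all epithelial cells, for 6 groups and 3 replicates, with the mean and SD. Samples with rIFNγ plus rIL-10 are lowest for Ccnb1 and Cenpf, with replicate 1 lowest in most panels, while those of Top2a spread from 288 to 444 CPM across the range of the other groups.

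**Figure D3:**
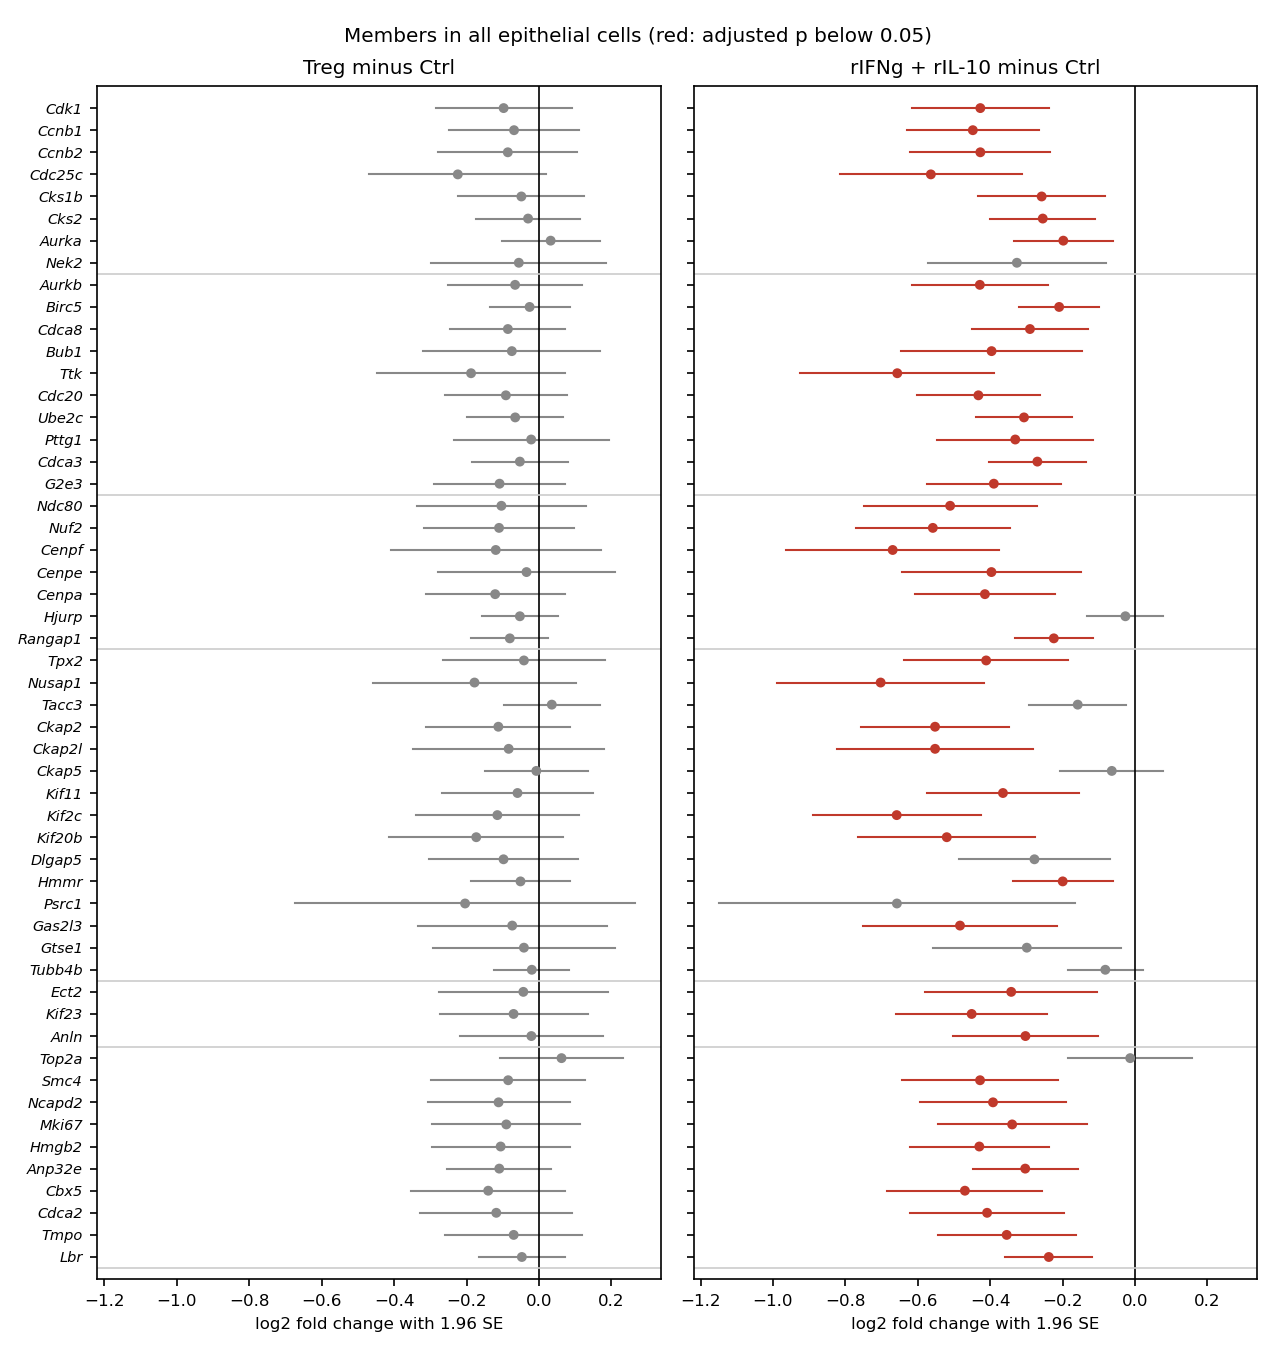
Log2 fold change of the 53 members, ordered by role from entry kinases (top) to chromosome and nuclear structure (bottom), with bars that extend by the multiple of the SE given on the axis, for Treg cells and for rIFNγ plus rIL-10, each against control. No member is red (adjusted p below 0.05) with Treg cells and 44 are with the cytokines, all to the left of 0.

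Further genes of the same pathway, outside the 53, were examined in the cytokine comparison. Among other cyclins and entry kinases, 8 of 16 were lower and 2 higher. Plk1, the kinase that promotes entry and centrosome maturation, had a log2 fold change of -0.53 ± 0.10, and Wee1, the kinase that restrains CDK1, of -0.69 ± 0.13. Of the spindle and cytokinesis genes outside the list, 22 of 28 were lower and 0 higher, such as the kinesin Kif20a (-0.49 ± 0.09) and stathmin (Stmn1, -0.57 ± 0.13). Kinetochore genes were lower in 17 of 26, with Spc25 at -0.53 ± 0.09, checkpoint genes in 7 of 13, with the cohesin protector Sgo2a at -0.53 ± 0.11, and condensin and cohesin genes in 9 of 15, with Smc1a at -0.31 ± 0.07. Subunits of the anaphase-promoting complex and its partners, many of which are present throughout the cycle, were lower in 4 of 17 and higher in 1, against 17.5% and 18.4% of all genes.

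Of 19 genes of G2/M transcription (MuvB, B-Myb, FOXM1, E2F and NF-Y), 3 were higher and 1 was lower, with a median of -0.09, so no more were higher than the 18.4% of all genes. Mybl2, which encodes B-Myb, rose by a log2 fold change of 0.45 ± 0.08 (adjusted p = 0.00103, edgeR), and E2f2, an activator of S phase genes, by 0.42 ± 0.09 (adjusted p = 0.00339, edgeR). Of 42 S phase genes, 1 was higher and 3 were lower in all epithelial cells, with a median of -0.02. Of 23 p53 targets, 4 were higher and 5 were lower, shares near those of all genes (18.4% higher and 17.5% lower), and the death receptor gene Fas (2.54 ± 0.32) had the smallest p among them. Of 82 interferon response genes, 70 were higher and 4 lower, with the transcription factor Irf1 at 4.32 ± 0.28.

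The same comparison was made within classes, to which treated cells were assigned by likeness to control clusters. In stem-like cells, rIFNγ plus rIL-10 changed 14 of 53 members, while 20.1% of the 11940 genes tested there were called. Of these, 13 were lower (10.2% of all genes) and 1 was higher (9.89%). The median log2 fold change was -0.14. In unnamed cells, 33 of 53 members were called, against 27.4% of 12536 genes, with 32 lower (13.1% of all genes) and 1 higher (14.3%), and the median was -0.20. A total of 12 members was lower in both classes, namely Ccnb1, Ccnb2, Cdc20, Cdc25c, Cenpa, Cenpf, Ckap2, Hmgb2, Kif2c, Nuf2, Nusap1 and Ube2c. This overlap was counted for members only, so no share over all genes stands beside it. Without the block, 1 member was called in stem-like and 3 in unnamed cells. Leaving out 1 replicate left 2 (without replicate 1), 23 (without replicate 2) or 8 (without replicate 3) called in stem-like and 19 to 27 in unnamed cells. The shares of all genes in these settings are not given.

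Cdc20 in stem-like cells had 72.2, 71.7 and 64.8 CPM in control and 47.7, 54.8 and 46.4 CPM with cytokines. These groups did not overlap (log2 fold change -0.47 ± 0.09, adjusted p = 0.000834, edgeR). Nusap1 in unnamed cells had 189, 186 and 159 CPM in control and 127, 147 and 111 CPM with cytokines (-0.47 ± 0.06, adjusted p = 1.49e-05, edgeR). Cdk1 had a log2 fold change of -0.23 ± 0.04 in unnamed cells (adjusted p = 0.000896, edgeR) and of -0.18 ± 0.08 in stem-like cells (adjusted p = 0.119, edgeR). The difference between classes was not tested for these genes.

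Top2a rose in both classes. In stem-like cells it had 454, 449 and 356 CPM in control and 532, 613 and 456 CPM with cytokines (log2 fold change 0.34 ± 0.06, adjusted p = 0.000235, edgeR). In unnamed cells it had 443, 443 and 370 CPM in control and 520, 550 and 411 CPM with cytokines (0.23 ± 0.05, adjusted p = 0.0011, edgeR). It was higher in 3 of 3 replicates of both classes. The samples did not overlap in stem-like cells, by a narrow margin, and 1 cytokine sample lay within the range of control in unnamed cells. With Treg cells and anti-IL-10R, Top2a was also the only member called in unnamed cells (0.19, adjusted p = 0.0446, edgeR), where 1.38% of all genes were called. That call was lost without the replicate block, without library 3 and under most other alternatives.

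S phase genes were higher in the same classes. Of 42 genes that are transcribed around DNA replication, 25 were higher and 0 lower in stem-like cells with cytokines (median log2 fold change 0.33), and 24 were higher and 1 was lower in unnamed cells (median 0.23). In control cells of all classes together, Top2a was among the members whose UMIs correlated most with those of the S phase genes (Spearman 0.39 over 1774 cells). Tmpo had 0.44 and Cbx5 0.36, while Cenpf (0.04) and Ccnb1 (-0.02) had values near 0. In unnamed cells with cytokines, Tmpo and Cbx5 had log2 fold changes of -0.17 ± 0.05 and -0.29 ± 0.06 (adjusted p = 0.00996 and 0.00106, edgeR). A link between the changes of members and those of the S phase genes was not tested. The control clusters to which the cells of a class were assigned differed between groups at the same time. In stem-like cells, cluster 3, led by Slfn9, Brca1 and Zgrf1, held 27.1%, 32.3% and 26.5% of control and 58.2%, 42.5% and 30.0% of cytokine-treated cells. In unnamed cells, cluster 9, led by Ccne1, Slfn9 and Rpa2, held 15.6%, 15.3% and 29.2% and 31.8%, 26.6% and 36.4%, and cluster 2, led by Dmbt1, Pif1 and Esco2, held 44.6%, 13.6% and 15.8% and 23.1%, 5.4% and 3.8%. The part of these shifts in the fold changes of a class was not tested.

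**Figure D4:**
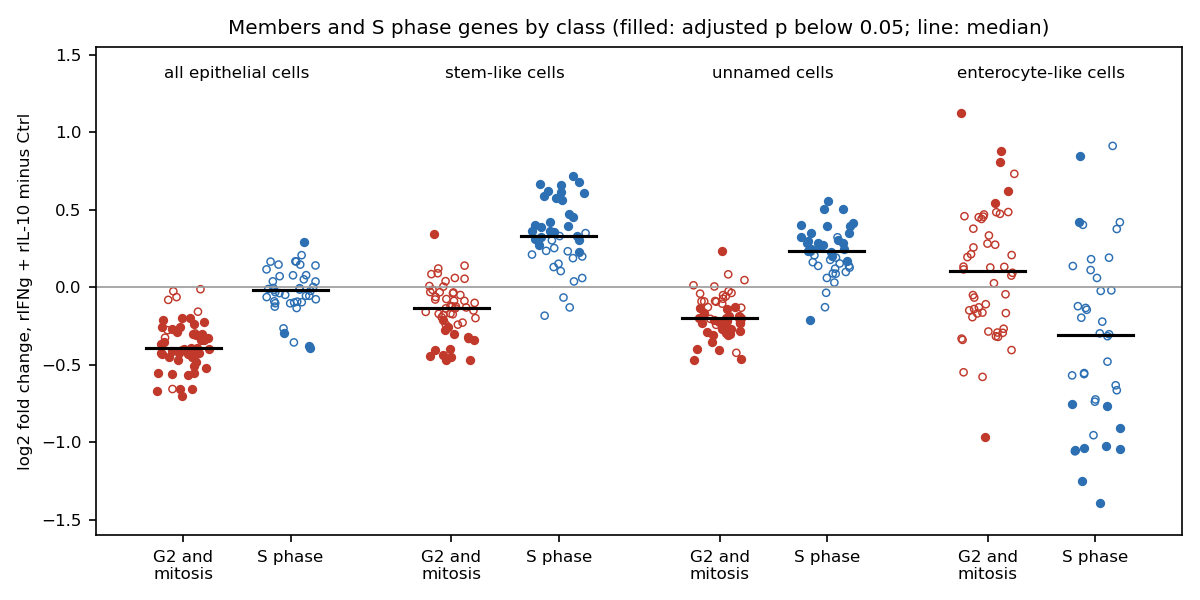
Log2 fold changes with rIFNγ plus rIL-10 against control of the 53 members (red) and 42 S phase genes (blue) in all epithelial cells and in 3 classes, with the median as a line. In stem-like and unnamed cells the members lie mostly below 0 (medians -0.14 and -0.20) and the S phase genes mostly above (medians 0.33 and 0.23). In enterocyte-like cells both spread widely.

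In enterocyte-like cells, where members were scarce, 6 of 52 tested members were called with cytokines, against 30.5% of all genes there, so the share was below that of all genes. Aurka, Birc5, Hmmr, Tubb4b and Ube2c were higher (16.6% of all genes) and Gas2l3 was lower (13.9%). Ube2c had 39.3, 69.0 and 85.5 CPM in control and 102, 101 and 115 CPM with cytokines (log2 fold change 0.81 ± 0.20, adjusted p = 0.00478, edgeR), and no sample overlapped. Hmmr, a spindle and hyaluronan-binding protein, had 4.73, 13.7 and 8.59 CPM in control and 20.9, 14.9 and 23.1 CPM with cytokines (1.13 ± 0.28, adjusted p = 0.0053, edgeR). Leaving out replicates left 0 to 8 calls, and 2 remained without the block. With Treg cells, the median over 52 members was 0.49 in this class, and 24 members had an unadjusted p under 0.05, but 0 were called (0.0801% of all genes), and DESeq2 called 0. Without the filter on low counts, edgeR called 19. The groups with antibodies also lay above control, with medians of 0.32 (anti-IFNγ), 0.28 (anti-IL-10R) and 0.66 (both antibodies). There, 9, 14 and 38 members had an unadjusted p under 0.05, and edgeR called 0 in each group. The shares of all genes at this unadjusted p, with replicates left out, without the block and without the filter are not given.

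Secretory-like cells were few, with 17 to 56 cells per sample in control and Treg co-culture. With Treg cells, the median over 50 tested members was -1.43, and 40 had an unadjusted p under 0.05. None was called by edgeR (0% of all genes), and DESeq2 called 5, all lower. Without the filter on low counts, edgeR called 32. The shares of all genes in these alternatives, and at an unadjusted p under 0.05, are not given. Cdc20 had 57.8, 63.1 and 83.7 CPM in control and 16.8, 18.1 and 20.3 CPM with Treg cells (adjusted p = 0.15, edgeR), with no overlap between the samples. With cytokines, the median over the 50 members was -0.58, 0 were called (0.89% of all genes), 10 had an unadjusted p under 0.05, and DESeq2 called 0. In stem-like and unnamed cells, Treg cells changed 0 of 53 members (0.276% and 0.375% of all genes), with 1 and 6 members at an unadjusted p under 0.05 and 0 called by DESeq2.

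Single cells were then used to set the share of cells with member UMIs past a cut beside the level in those cells. Each cell was thinned to 10000 UMIs, and a cell was counted when at least 10 of these came from the 41 core members, that is without 12 that many cells use. This is a cut through a range and marks neither a cell type nor mitosis itself, and 1075 of 11911 cells lay between 7 and 12 core UMIs. The share was 67.5% ± 6.0 in control, 66.1% ± 0.7 with Treg cells, 70.0% ± 2.6 with anti-IFNγ, 68.0% ± 2.1 with anti-IL-10R, 67.9% ± 1.5 with both antibodies and 62.7% ± 8.5 with rIFNγ plus rIL-10 (SD, n = 3). Enterocyte-like cells, which should hold few mitotic cells, had shares of 9.74% to 18.3%, at median depths of 36438 to 39396.5 UMIs per cell. Without thinning, 89.0% of control cells passed the same cut.

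The cytokine group had 52.9%, 67.4% and 67.9% in replicates 1, 2 and 3, against 69.1%, 72.6% and 60.9% in control. The shares were lower in replicates 1 and 2 and higher in replicate 3, and the difference of -4.83 percentage points did not exceed the spread (two-sided exact permutation test, p = 0.5). It was -10.7 without replicate 3 and 0.87 without replicate 1. The level within the counted cells did not overlap between the groups. Control cells past the cut held 51.6, 47.1 and 46.7 core UMIs per 10000, and cytokine-treated ones 37.7, 43.5 and 37.7. All cytokine replicates lay below all control replicates, by a mean of -8.83 core UMIs, and the two-sided exact permutation p of 0.1 is the smallest that 3 against 3 samples allow.

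With anti-IFNγ, the share was 3.86 percentage points higher than with Treg cells alone, with 70.9%, 72.0% and 67.0% against 66.8%, 66.0% and 65.5%. The samples did not overlap (exact permutation p = 0.1, again the smallest possible), and the difference was 2.09 percentage points without library 3. These were 2 of 16 tests on shares and levels, none of which could pass 0.05 in this design. Both had an adjusted p of 0.8 over the 16 exact permutation tests. The permutations treated samples as unpaired, although the groups of a replicate share its libraries. A sign-flip permutation test on 3 pairs cannot give a p below 0.25. Over the cells of a class, the mean number of core UMIs went from 35.1 ± 6.90 in control to 32.0 ± 2.98 with cytokines in stem-like cells, from 45.6 ± 3.33 to 40.3 ± 2.44 in unnamed, from 5.77 ± 0.29 to 7.01 ± 0.23 in enterocyte-like and from 17.7 ± 1.99 to 11.9 ± 4.76 in secretory-like cells (SD, n = 3). In stem-like cells, the replicates had 42.1, 34.8 and 28.3 core UMIs in control and 33.0, 34.3 and 28.6 with cytokines. The fall of this mean thus came from replicate 1, and replicates 2 and 3 hardly changed. Unnamed cells had 49.2, 44.9 and 42.6 in control and 42.1, 41.2 and 37.5 with cytokines, lower in 3 of 3 replicates. By contrast, the share of cells past the cut was higher with cytokines in both classes. In stem-like cells it was 76.9%, 75.2% and 59.0% in control and 91.1%, 81.1% and 75.0% with cytokines, and in unnamed cells 95.2%, 91.8% and 88.3% in control and 95.95%, 92.4% and 94.0% with cytokines. It was higher in 3 of 3 replicates of both classes, and these class shares were not tested. Cluster 1, the stem-like cluster with the fewest member UMIs, held a smaller part of this class with cytokines. Its part in the higher stem-like share was not tested. The mix of classes differed as well. Stem-like cells made up 29.9% ± 7.6 of control and 13.3% ± 1.1 of cytokine-treated cells, and enterocyte-like cells 19.0% ± 2.9 and 28.4% ± 11.7. The enterocyte-like share was 19.6%, 15.8% and 21.4% in control and 41.8%, 21.6% and 21.6% with cytokines, so replicate 3 hardly changed. Secretory-like cells made up 3.19%, 3.00% and 4.93% of control and 13.9%, 9.26% and 11.1% of cytokine-treated cells, without overlap. The part of these classes in the fall over all cells was not tested. Every cell took its class by likeness to control clusters. Some genes that led the stem-like clusters were lower with cytokines over all cells, such as Olfm4 (log2 fold change -1.33) and Clca3b (-1.23). The part of this in the class shares was not tested either.

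**Figure D5:**
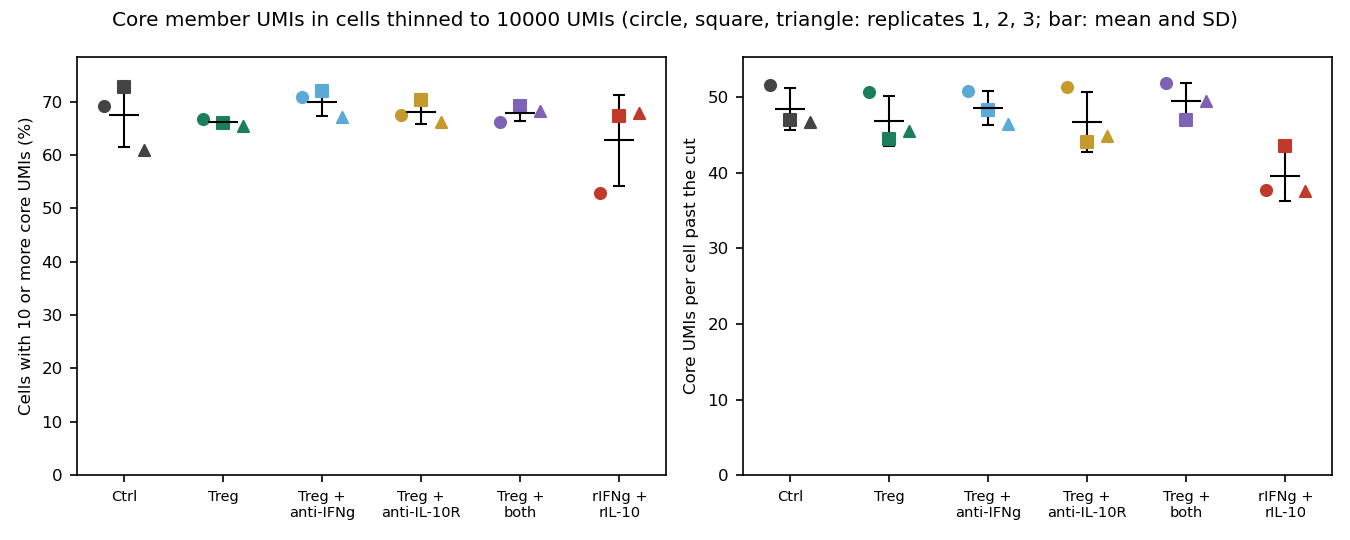
Share of cells with at least 10 core member UMIs among 10000 (left, %) and mean core UMIs in those cells (right), for 6 groups and 3 replicates, with the mean and SD. The shares overlap between groups, with cytokine replicate 1 alone at 52.9%, whereas the levels of all 3 cytokine replicates (37.7 to 43.5) lie below those of all control replicates (46.7 to 51.6).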

How the data were processed

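The authors mapped reads to mm10 (GRCm38) with Cell Ranger 7.0.0 and deposited, for each library, raw UMI counts of genes and hashtags per cell, without normalization. From these counts, hashtags were called with HTODemux (CLR, quantile 0.99), and limits from the paper were applied (10000 to 90000 UMIs and 3000 to 10000 genes per cell, mitochondrial share up to 8.5%). A further library, excluded by the authors, was not analysed here. The paper also removed doublets with scDblFinder, which was not done here. Scrublet was run only as an alternative. Its scores separated hashtag doublets from other cells poorly. The area under the ROC curve was 0.452 in library 3, no better than a random order, and 0.627 to 0.749 in the others. Removing its highest scores therefore cannot decide what doublets contributed. Classes were built by Leiden clustering of control cells without cell cycle and interferon genes, and named from marker genes. UMIs were summed per group and replicate and compared in edgeR 4.0.16 by its quasi-likelihood test (TMM, filterByExpr, 1 fit of all 18 sums, replicate as a block, Benjamini-Hochberg adjusted p below 0.05 over all genes tested). Deviations from group means had a mean correlation of 0.386 within a replicate number, and the groups of a replicate share its libraries. The mean of -0.191 across numbers is made negative by subtracting each group mean and adds no separate evidence. Labels call the replicates biological but name no mice, so p-values measure the spread between these samples. For the cytokine comparison, counts of 15002 genes were simulated with a fixed dispersion of 0.02 and no differences between replicates. In these counts, 37 of 100 genes changed 1.5-fold and 80 of 100 changed 2-fold were recovered, with 12 false calls. The dispersion was set and not fitted to these data, so these shares need not hold for the real counts. Members, lists and named genes (8 landmarks, the 6 smallest adjusted p, or the 3 smallest p where none passed, and up to 4 genes of other lists) were chosen with earlier results of these data known. Ttk, Hjurp, genes given by fold change only, and genes named within classes were added after their values had been seen. Promoters are from RefSeq.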

Additional observations from a re-analysis of the deposited data

Results flagged for a closer look

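In the cytokine comparison, several members were higher than control in every replicate of enterocyte-like cells and lower in every replicate of another class. These opposite directions were not tested as a difference between classes. They were sought among the landmark and named members only, with no count over all genes. Values are means over 3 replicates of the log2 ratio of CPM + 1. For Ube2c, the mean was 0.77 in enterocyte-like cells, which was 1.04 above stem-like cells (-0.27), 0.96 above unnamed cells (-0.19) and 1.51 above secretory-like cells (-0.74). For Aurka, enterocyte-like cells (0.75) lay 1.52 above secretory-like cells (-0.77). Its level was very low in thinned enterocyte-like control cells, at 3.17 ± 1.89 CPM (SD, n = 3). For Mki67, they lay 0.53 above unnamed cells (0.40 and -0.14). For Kif2c, enterocyte-like cells (0.09) lay 0.55 above stem-like cells (-0.46), 0.49 above unnamed cells (-0.40) and 0.93 above secretory-like cells (-0.84), and the rise in enterocyte-like cells had a fitted log2 fold change of 0.07 ± 0.41 (adjusted p = 0.919, edgeR).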

How the results depend on the processing

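The alternatives covered scaling (RLE), the filter on low counts, DESeq2, the replicate block, the upper limit on UMIs, thinning, Scrublet, library 3 (chosen after seeing the data) and each replicate left out. Of the counts of called members and the share and level results, 46 counts moved by more than 1.5 times. Counts under alternatives are of members only, and the shares of all genes in these settings are not given. The share differences stayed within the spread of the replicate differences, but their sign changed when replicates were left out, with -10.7 to 0.87 percentage points for cytokines, -4.45 to 1.14 for Treg cells, -2.01 to 1.80 for anti-IL-10R and -3.16 to 2.26 for both antibodies, each against control. Further differences near 0 in the antibody groups also changed sign at other cuts, depths or with Scrublet. Without the replicate block, 10 members were called in all epithelial cells in the cytokine comparison, 1 in stem-like, 3 in unnamed and 2 in enterocyte-like cells. Leaving out 1 replicate gave 23 to 39 (23 without replicate 1), 2 to 23 (2 without replicate 1), 19 to 27 and 0 to 8 calls in the same order, and thinned cells gave 6 in stem-like and 15 in unnamed cells. The single call with anti-IL-10R in unnamed cells (Top2a) became 0 under RLE, without the block, without the upper limit, with thinning, with Scrublet and without library 3, 0 to 1 with replicates left out, and 2 without the filter. Leaving out 1 replicate also gave 0 to 1 calls with both antibodies against Treg cells in all epithelial and in stem-like cells, and with Treg cells against control in enterocyte-like and secretory-like cells. DESeq2 called 1 member with anti-IL-10R in stem-like cells, 2 with both antibodies in enterocyte-like cells and 5 with Treg cells in secretory-like cells. Without the filter, 1 was called with anti-IL-10R in stem-like cells and 1 with both antibodies against Treg cells in unnamed cells. Also without the filter, enterocyte-like cells had 19, 4, 10 and 20 calls against control with Treg cells, anti-IFNγ, anti-IL-10R and both, and 1 each with anti-IFNγ and both against Treg cells, while secretory-like cells had 32, 8, 5, 10 and 10 (cytokines) against control and 8, 23 and 3 against Treg cells. Of the named genes, Kif2c with anti-IL-10R turned to 0.016 when thinned, and Top2a with cytokines to 0.000257 (RLE), 0.000228 (DESeq2), 0.026 (no upper limit), with -0.12 to 0.15 when replicates were left out (above 0 without replicate 1). Of the named genes in the cytokine comparison, Cdk1, Ccnb1, Cdc20, Ube2c, Mki67 and Aurka lost their call without the block, Ube2c and Aurka without replicate 1, Aurka without replicate 2 and Mki67 without replicate 1 or 3, and Aurka also in 3 other settings. The cause was not tested in any of these. Small classes limit the depth, down to 14 cells in secretory-like cells.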
